A study of Mus musculus with 19 samples.

Results

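Apobec1 and Apobec3, a pair of mouse cytidine deaminase genes, were followed across spleens of HGAL-transgenic and wild-type mice. They were read through the probe sets annotated to exactly 1 of these symbols. These were 2 of the 41345 deposited probe sets, 1 for each gene, and neither was shared with another symbol; 22180 genes in all had a probe set with a single symbol. The series profiled total spleen RNA on 19 expression arrays, 1 per sample, from mice with a conditional human HGAL gene in the Rosa26 locus and from wild-type controls. There were 4 tumour-bearing spleens with Rosa26-HGAL and Aid-Cre, 5 tumour-bearing spleens with Rosa26-HGAL and Mb1-Cre, 4 tumour-bearing spleens with Rosa26-HGAL and Sca1-Cre, 3 Sca1-Cre spleens from before tumours appeared (pre-tumour), and 3 spleens of wild-type control mice. All animals lived in a conventional facility with exposure to common pathogens; age and strain are not stated in the labels used here. HGAL is an adaptor protein of germinal centre B cells. The Mb1-Cre driver carries the name of mb-1 (Cd79a, a signalling chain of the B cell receptor) and the Sca1-Cre driver that of Sca1 (Ly6a, a surface antigen of blood stem and progenitor cells). Each group holds whatever cells the spleen contained, not sorted B cells.

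The APOBEC enzymes remove the amino group of cytosine in single-stranded DNA or in RNA and leave uracil. Apobec1 edits messenger RNA: with its RNA-binding partners A1cf or Rbm47 it rewrites a codon of apolipoprotein B in the gut, and in mouse macrophages it edits further transcripts. Apobec3 is the single mouse gene of a family that is larger in primates. It restricts retroviruses such as murine leukaemia viruses, and its level and splicing are known to differ between inbred mouse strains.

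Expression is given as the log2 value that the authors obtained by RMA (background correction, quantile normalisation and probe-set summary), so that 1 unit is a doubling. Array medians lay between 5.23 and 5.4 and the 40th percentiles between 4.72 and 4.9; values under those percentiles are called near background below. A single limma fit of the 5 groups supplied the tests, a call being a Benjamini-Hochberg adjusted p under 0.05 across all 22180 genes, and differences are on the log2 scale with the standard error (SE) of that fit. The 2 genes were chosen by their values on these arrays, Apobec1 by its high values in Aid-Cre tumours and Apobec3 by its low values in Mb1-Cre tumours. Values involving those groups for those genes are therefore descriptions with no test. The B cell marker list mean ran from 7.11, in Aid-Cre tumour replicate 2, to 11.24. By group mean 0 of 8 members were near background in any group. Single arrays could be lower: Cr2 fell to 4.78 in the Aid-Cre tumours, whose Cr2 mean was 9.22. Exocrine pancreas transcripts, which do not belong to spleen, had a list mean of 8.33 in Mb1-Cre tumour replicate 2 and 6.23 in wild type replicate 2. The pre-tumour spleens had 5.63, 5.22 and 4.85, against 4.57 to 4.72 in Aid-Cre and 4.45 to 4.57 in Sca1-Cre tumours. Fits below without both arrays with pancreatic transcripts leave out only Mb1-Cre tumour replicate 2 and wild type replicate 2.

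Apobec1 was highest in the Aid-Cre tumours. It measured 9.83, 10.68, 10.55 and 10.11 in the 4 Aid-Cre tumours and 9.64, 8.80, 8.97, 8.65 and 8.81 in the 5 Mb1-Cre tumours. The Sca1-Cre tumours measured 8.99, 8.87, 9.03 and 9.77, the pre-tumour spleens 8.99, 9.30 and 8.98, and the wild-type spleens 9.15, 8.97 and 8.66. All 4 Aid-Cre tumours lay above all 15 other arrays, whose median was 8.98 and whose highest value was 9.77, in Sca1-Cre tumour replicate 4. Such a separation, with every Aid-Cre array above every other array, held for 9 of 22180 genes (0.0406%). This share is background only, because the pattern chose the gene.

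The group means of Apobec1 were 10.29 ± 0.39 in Aid-Cre tumours (SD, n = 4), 9.16 ± 0.41 in Sca1-Cre tumours (SD, n = 4), 9.09 ± 0.18 in pre-tumour spleens (SD, n = 3), 8.97 ± 0.39 in Mb1-Cre tumours (SD, n = 5) and 8.93 ± 0.25 in wild type (SD, n = 3). The 4 groups below the Aid-Cre tumours lay within 1 SD of their neighbours in this order. Aid-Cre tumours stood 1.36 ± 0.25 above wild type, a 2.57-fold difference, 1.32 ± 0.22 above Mb1-Cre tumours and 1.13 ± 0.24 above Sca1-Cre tumours. Against the mean of the 4 other groups the difference was 1.25 ± 0.19. With each array left out in turn the Aid-Cre difference from wild type ran from 1.23 to 1.52.

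**Figure D1:**
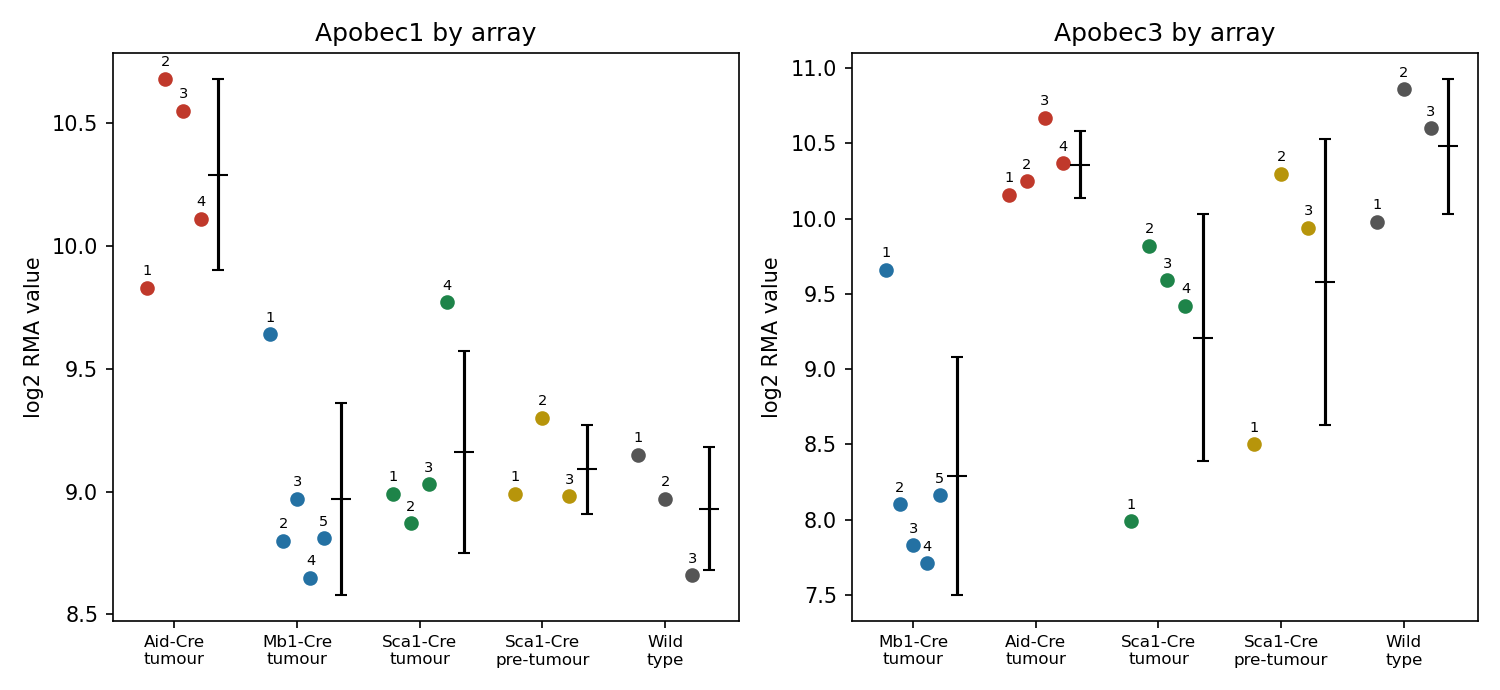
Log2 RMA values of Apobec1 (left) and Apobec3 (right) on each of 19 arrays, by group; points carry replicate numbers and the bars beside them show the group mean ± SD. The 4 Aid-Cre tumours form the top of the Apobec1 panel, at 9.83 to 10.68, while in the Apobec3 panel 4 of 5 Mb1-Cre tumours, Sca1-Cre tumour replicate 1 and pre-tumour replicate 1 lie at 7.71 to 8.5.

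Outside the Aid-Cre tumours the group means of Apobec1 lay between 8.93 and 9.16, and limma called none of these differences. Mb1-Cre tumours differed from wild type by 0.04 ± 0.24, with a 95% interval of -0.47 to 0.56 (limma adjusted p = 0.954). Sca1-Cre tumours differed from wild type by 0.24 ± 0.25, with an interval of -0.3 to 0.77 (limma adjusted p = 0.789). The Sca1-Cre tumour difference was 0.03 without replicate 4, whose 9.77 stood above 8.87 to 9.03 in the other 3; that array also had the highest germinal centre B cell list mean of the series, 9.98, and the part of those cells in its Apobec1 value was not tested. Pre-tumour spleens stood 0.16 ± 0.27 above wild type, with an interval of -0.41 to 0.74 (limma adjusted p = 0.962), and 0.07 ± 0.25 separated Sca1-Cre tumours from pre-tumour spleens (limma adjusted p = 0.971). Mb1-Cre and Sca1-Cre tumours differed by -0.19 ± 0.22, with an interval of -0.66 to 0.28 (limma adjusted p = 0.686).

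The 4 Aid-Cre tumours shared a high Apobec1 value while their cell markers differed widely. The B cell list mean was 9.71, 7.11, 11.24 and 11.11 in the 4 Aid-Cre tumours, against 10.96, 11.21 and 10.76 in wild type. The neutrophil list mean was 10.78, 11.28, 6.76 and 7.0 in the Aid-Cre tumours, against 7.65, 9.01 and 9.98 in wild type. Macrophage markers averaged 8.09, 8.67, 7.79 and 7.30 in the Aid-Cre tumours and 7.43, 7.67 and 8.20 in wild type, and 0 of 11 members were near background. Replicates 1 and 2 thus had low B cell and high neutrophil values and replicates 3 and 4 the reverse, and Apobec1 lay above all other arrays in each of them. In bulk tissue, more cells that hold the transcript and more transcript per cell cannot be told apart.

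The window around the Apobec1 transcription start is shown as a description of the sequence. It is taken from RefSeq on GRCm38.p6, minus strand, at chr6:122602395-122602694, and runs from 250 bases before the start to 50 bases after it; capitals mark the only match to the motifs searched.
Apobec1: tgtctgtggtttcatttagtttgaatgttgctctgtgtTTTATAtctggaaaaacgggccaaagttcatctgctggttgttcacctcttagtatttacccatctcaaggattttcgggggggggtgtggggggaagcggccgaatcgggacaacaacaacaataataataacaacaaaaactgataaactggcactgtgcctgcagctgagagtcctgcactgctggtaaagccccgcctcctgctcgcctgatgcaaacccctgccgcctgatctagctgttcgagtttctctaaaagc
The motifs searched, on both strands, were the interferon-stimulated response element (GAAA, any 2 bases, GAAA), the gamma-activated site TTCNNNGAA, the PU.1 site GAGGAAGT and the TATA box TATAAA. The Apobec1 window held 1 TATA box match, read on the opposite strand and at position -212 from the start. A TATA box match was present in 13.6% of 32851 RefSeq windows of this length, so the match is common and is given as a description of the letters.

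Of the 20 measured genes nearest to Apobec1 on chromosome 6, 10 on each side, limma called 0 in Aid-Cre tumours against wild type, where it called 4 of all 22180 genes (0.0180%) and 1842 had an unadjusted p under 0.05. The neighbours had a median difference of -0.1, beside 0.01 over all genes, and 7 of 20 lay above 0. Apobec1 was chosen by its values in these tumours, so its distance from the neighbours follows from that choice. Gdf3, a TGF-beta family growth factor gene beside Apobec1, measured 6.66, 7.67, 4.99 and 5.26 in Aid-Cre tumours, against 4.99, 4.92 and 5.39 in wild type, a difference of 1.05 ± 0.50. It was high in replicates 1 and 2 only, whereas Apobec1 was high in all 4. Foxj2, a forkhead transcription factor gene, differed by -0.51 ± 0.21, Mug2 by 0.21 ± 0.10 and Mfap5 by 0.14 ± 0.07, none called.

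Apobec3 was lowest in the Mb1-Cre tumours. It measured 9.66, 8.10, 7.83, 7.71 and 8.16 in the 5 Mb1-Cre tumours and 10.16, 10.25, 10.67 and 10.37 in the 4 Aid-Cre tumours. The Sca1-Cre tumours measured 7.99, 9.82, 9.59 and 9.42, the pre-tumour spleens 8.5, 10.30 and 9.94, and the wild-type spleens 9.98, 10.86 and 10.60. Each Mb1-Cre tumour lay below each wild-type spleen, a separation that held for 1193 of 22180 genes (5.38%). The Mb1-Cre tumours did not stand apart from all other arrays: replicate 1, at 9.66, lay among the higher arrays, and Sca1-Cre tumour replicate 1 and pre-tumour replicate 1 lay among the lower ones.

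Over the 19 arrays Apobec3 split into a lower set of 6 arrays, from 7.71 to 8.5, and a higher set of 13, from 9.42 to 10.86. The gap of 0.92 between them was the widest between neighbouring arrays, and the next widest was 0.34. For Apobec1 the widest such gap was 0.44. The lower set of Apobec3 held 4 of 5 Mb1-Cre tumours, 1 of 4 Sca1-Cre tumours, 1 of 3 pre-tumour spleens, 0 of 4 Aid-Cre tumours and 0 of 3 wild-type spleens. The group means of Apobec3 therefore mix arrays from both sides of the gap in 3 of the 5 groups, and their SDs are wide there.

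The group means of Apobec3 were 8.29 ± 0.79 in Mb1-Cre tumours (SD, n = 5), 9.21 ± 0.82 in Sca1-Cre tumours (SD, n = 4), 9.58 ± 0.95 in pre-tumour spleens (SD, n = 3), 10.36 ± 0.22 for the Aid-Cre tumours (SD, n = 4) and 10.48 ± 0.45 in wild type (SD, n = 3), from low to high. Neighbours in this order lay within the larger of their SDs, except Mb1-Cre and Sca1-Cre tumours, whose means differed by -0.91 ± 0.44. Mb1-Cre tumours stood at -2.19 ± 0.47 against wild type, 4.55-fold lower, and at -1.61 ± 0.34 against the mean of the 4 other groups. Aid-Cre tumours were 2.07 ± 0.44 above Mb1-Cre tumours. The Mb1-Cre difference from wild type ran from -2.53 to -2.0 with each array left out in turn.

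The Aid-Cre tumours held Apobec3 near the wild-type level, with a difference of -0.12 ± 0.50 and a 95% interval of -1.17 to 0.93 (limma adjusted p = 0.975). Sca1-Cre tumours stood at -1.27 ± 0.50 against wild type, with an interval of -2.32 to -0.22; the unadjusted p was 0.0203 and the adjusted p 0.338, so limma did not call it. All 4 Sca1-Cre tumours lay below all 3 wild-type spleens, as did the tumours for 1299 of 22180 genes (5.86%). Without Sca1-Cre tumour replicate 1 the difference was -0.87. Pre-tumour spleens stood at -0.90 ± 0.53 against wild type, with an interval of -2.02 to 0.22 (limma adjusted p = 0.887), and at -0.36 without their replicate 1. Sca1-Cre tumours differed from pre-tumour spleens by -0.37 ± 0.50 (limma adjusted p = 0.916), a comparison in which 0 of 22180 genes (0%) were called and 1185 had an unadjusted p under 0.05. Aid-Cre tumours stood 1.16 ± 0.46 above Sca1-Cre tumours (limma adjusted p = 0.289; 10 genes called, 0.0451%), and 0.75 above them without Sca1-Cre tumour replicate 1. The comparisons with wild type share the same 3 wild-type arrays.

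**Figure D2:**
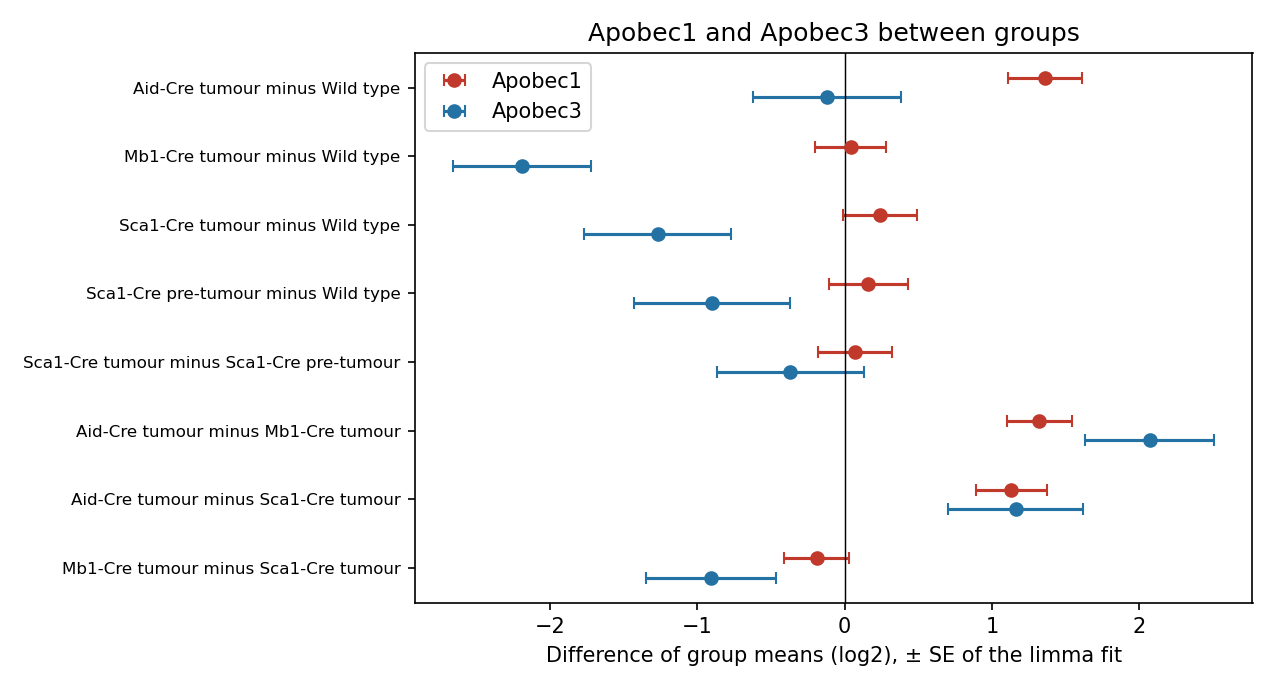
Differences of group means for Apobec1 (red) and Apobec3 (blue) in 8 comparisons, on the log2 scale; bars are the SE of the limma fit, and positive values are higher in the group named first. Apobec1 stands at 1.13 to 1.36 in the 3 comparisons with Aid-Cre tumours and between -0.19 and 0.24 in the others, while Apobec3 is lowest in Mb1-Cre tumours against wild type, at -2.19.

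Cell marker lists in the Mb1-Cre tumours were read beside Apobec3. The neutrophil list mean was 11.09, 11.02, 10.84, 11.48 and 11.69 in Mb1-Cre tumours, against 7.65, 9.01 and 9.98 in wild type, with 0 of 10 members near background. The B cell list mean was 9.44, 10.52, 9.94, 8.94 and 9.72 in Mb1-Cre tumours, against 10.96, 11.21 and 10.76 in wild type. All 11 macrophage markers lay above 0 in Mb1-Cre tumours against wild type. Their median difference was 0.74, beside 0 over all genes, within a range of 0.36 to 1.37. Among them limma called 0, and it called 0 of all 22180 genes in this comparison. At an unadjusted p under 0.05 there were 4 of the 11, where 11.3% of all genes lay under it. The macrophage list mean was 9.18, 9.23, 7.78, 8.23 and 8.41 in Mb1-Cre tumours, against 7.43, 7.67 and 8.20 in wild type, and replicate 3 of these tumours lay within the wild-type range. Neither the neutrophil nor the B cell list followed the gap in Apobec3 array by array: Mb1-Cre tumour replicate 1 had high Apobec3 beside a neutrophil value within the range of the other Mb1-Cre tumours. Sca1-Cre tumour replicate 1 and pre-tumour replicate 1 had low Apobec3 with neutrophil values of 8.47 and 7.73 and B cell values of 11.04 and 10.77. Mb1-Cre tumour replicate 1 did differ from the other Mb1-Cre tumours in further lists. Its erythroid list mean was 7.09, and the next lowest was 9.54. Its mitosis list mean was 7.59, against 8.68 to 9.99, and its T cell list mean was the highest, at 9.02. Sca1-Cre tumour replicate 1 and pre-tumour replicate 1 shared these traits but had low Apobec3. Their erythroid values were 7.82 and 6.5, mitosis 6.82 and 5.93, and T cell 9.79 and 9.7. The part of cell makeup in the Mb1-Cre difference was not tested.

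Sex was spread unevenly over the groups. Kdm5d, a Y-linked gene, measured 4.22 in Mb1-Cre tumour replicate 1 and 7.59, 7.65, 6.80 and 7.41 in the other Mb1-Cre tumours, against 7.75, 8.18 and 7.46 in wild type. The Mb1-Cre tumour with high Apobec3 was thus the only one without Y-linked signal, while the 3 wild-type spleens had Y-linked signal and high Apobec3. With a covariate for sex Apobec3 stood at -2.27 ± 0.48 in Mb1-Cre tumours against wild type. The Aid-Cre tumours had Kdm5d from 3.62 to 8.27 with a median of 3.88. Their Apobec1 difference from wild type ran from 1.33 to 1.4 over 11 other settings, the sex covariate among them. Among the other arrays low in Apobec3, the sex-linked list mean was 5.74 in Sca1-Cre tumour replicate 1 and 7.24 in pre-tumour replicate 1. It was 5.74 in Mb1-Cre tumour replicate 1 and 6.83 to 7.27 in wild type.

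Genes that differ between inbred strains were read beside Apobec3. Of 5 measured members limma called 1, the interferon-inducible gene Ifi202b. It measured 6.44, 5.47, 5.11, 5.91 and 5.34 in Mb1-Cre tumours, against 3.18 to 4.10 in Aid-Cre tumours and 3.18 to 3.49 in Sca1-Cre tumours. Aid-Cre minus Mb1-Cre tumours gave -2.14 ± 0.31 (limma adjusted p = 0.0312; 10 genes called, 0.0451%), and Mb1-Cre minus Sca1-Cre tumours 2.27 ± 0.31 (limma adjusted p = 0.0190; 9 genes called, 0.0406%). Under 19 other settings, tried for this gene after the data were seen, it was called under 9 in the first comparison and under 15 in the second; over all 19 the differences ran from -2.36 to -1.94 and from 2.08 to 2.41. Without both arrays with pancreatic transcripts it was called in neither, at -2.18 (limma adjusted p = 0.0794) and 2.32 (limma adjusted p = 0.0676). With only the compared groups the first difference had a limma adjusted p of 0.185, and with array weights 0.126. The Mb1-Cre difference of Ifi202b from wild type, 1.40 ± 0.34, was not called (limma adjusted p = 0.204).

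H2-Ea, a class II antigen gene that some mouse haplotypes do not express, measured 4.17, 10.79, 4.19, 8.76 and 4.01 in Mb1-Cre tumours, 10.31, 10.65 and 10.45 in pre-tumour spleens, and 4.22, 3.85 and 3.71 in wild type. The Aid-Cre tumours and the Sca1-Cre tumours lay between 3.72 and 4.29. High H2-Ea and low Apobec3 were on the same arrays in part. Mb1-Cre tumour replicates 2 and 4 and pre-tumour replicate 1 had low Apobec3 with high H2-Ea. Mb1-Cre tumour replicates 3 and 5 and Sca1-Cre tumour replicate 1 had low Apobec3 with H2-Ea near background. Pre-tumour replicates 2 and 3 had high values of both genes. The genetic background of the mice is not given in the sources used here, and its part in the Apobec3 values was not tested.

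The chromosomal setting of Apobec3 is shown because overlapping genes moved with it. A long noncoding RNA gene, D730005E14Rik, and Cbx7, a Polycomb chromobox gene, overlap the Apobec3 interval on chromosome 15 in the GRCm38.p6 annotation and lie on the opposite strand. The windows below are from RefSeq on GRCm38.p6, each from 250 bases before a start to 50 bases after it, at chr15:79892158-79892457 on the plus strand for the upstream start of Apobec3 and at chr15:79893089-79893388 on the minus strand for D730005E14Rik. Capitals mark matches to the motifs named above.
Apobec3: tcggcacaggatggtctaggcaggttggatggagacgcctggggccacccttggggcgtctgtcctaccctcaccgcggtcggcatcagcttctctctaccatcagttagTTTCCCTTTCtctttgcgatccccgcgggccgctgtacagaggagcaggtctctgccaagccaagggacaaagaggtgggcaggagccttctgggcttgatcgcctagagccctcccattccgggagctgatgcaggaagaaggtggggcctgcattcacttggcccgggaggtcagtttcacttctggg
D730005E14Rik: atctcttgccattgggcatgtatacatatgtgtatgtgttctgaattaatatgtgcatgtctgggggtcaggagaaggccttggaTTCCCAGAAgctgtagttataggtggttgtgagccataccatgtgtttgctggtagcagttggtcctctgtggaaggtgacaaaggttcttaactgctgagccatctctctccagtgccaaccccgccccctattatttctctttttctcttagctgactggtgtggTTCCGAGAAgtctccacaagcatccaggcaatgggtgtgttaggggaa
The Apobec3 window held 1 match to the interferon-stimulated response element, read on the opposite strand and at position -140 from the start, and 3.44% of 32851 windows held one. The D730005E14Rik window held the gamma-activated site at positions -165 and 2 from its start; this motif reads alike on both strands and was present in 8.3% of windows. A further RefSeq start of Apobec3 on the plus strand, not printed, held 1 TATA box match.

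D730005E14Rik closely resembled Apobec3 across the arrays. It measured 6.92, 5.30, 5.23, 5.05 and 5.67 in Mb1-Cre tumours and 8.01, 7.78, 8.16 and 7.38 in Aid-Cre tumours. The Sca1-Cre tumours measured 5.22, 7.25, 6.70 and 7.02, the pre-tumour spleens 5.96, 7.79 and 7.66, and the wild-type spleens 7.43, 9.47 and 8.04. Its 6 lowest arrays, from 5.05 to 5.96, were the same 6 as those of Apobec3, and the next array stood at 6.70. Pearson's r with Apobec3 over the 19 arrays was 0.97, and 0.92 for deviations from the group means.

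The D730005E14Rik difference of Mb1-Cre tumours from wild type was -2.68 ± 0.55, beside -2.19 ± 0.47 for Apobec3. Sca1-Cre tumours stood at -1.76 ± 0.58 against wild type (limma adjusted p = 0.256). The strand that each probe set reads is not given in the sources used here, so that signal from Apobec3 and from the gene on its opposite strand cannot be told apart.

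Cbx7 followed Apobec3 less closely. It measured 7.86, 7.77, 7.50, 6.76 and 7.20 in Mb1-Cre tumours, against 8.58, 9.31 and 8.73 in wild type, a difference of -1.46 ± 0.33. Its 6 lowest arrays shared 4 with those of Apobec3, and r was 0.78 over the arrays and 0.50 for deviations from the group means. Aid-Cre tumour replicate 2 was low in Cbx7, at 7.49, and high in Apobec3, at 10.25.

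**Figure D3:**
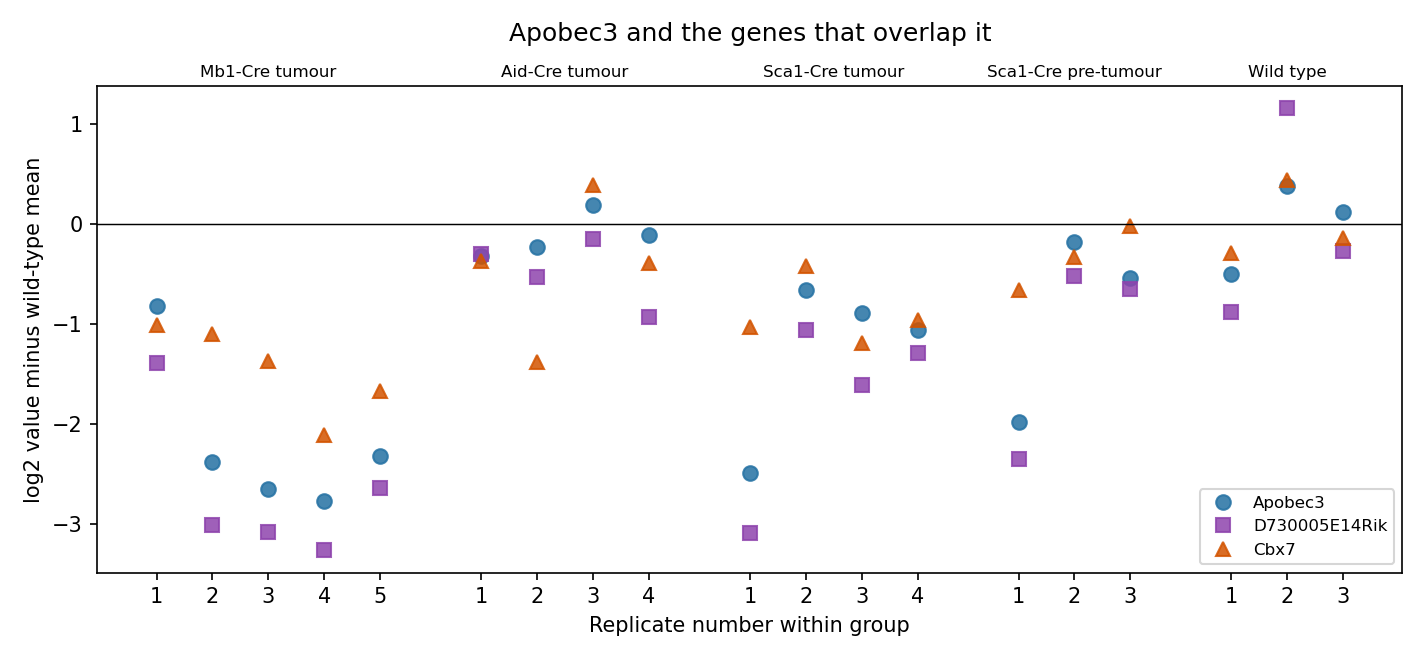
Apobec3 (circles) and the genes that overlap it, D730005E14Rik (squares) and Cbx7 (triangles), on each array as the log2 value minus that gene's wild-type mean. D730005E14Rik is low on the same 6 arrays as Apobec3, including Sca1-Cre tumour replicate 1 and pre-tumour replicate 1, while Cbx7 is less far below wild type on those arrays.

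Of the 20 measured genes nearest to Apobec3, 10 on each side and including both overlapping genes, limma called 0 in Mb1-Cre tumours against wild type, where it called 0 of all 22180 genes (0%) and 2515 had an unadjusted p under 0.05. Their median difference was 0.03, beside 0 over all genes, and 12 of 20 lay above 0, within a range of -2.68 to 0.69. Snord83b, a small nucleolar RNA gene, stood at -1.07 ± 0.36 and Rpl3, a ribosomal protein gene, at 0.69 ± 0.30.

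**Figure D4:**
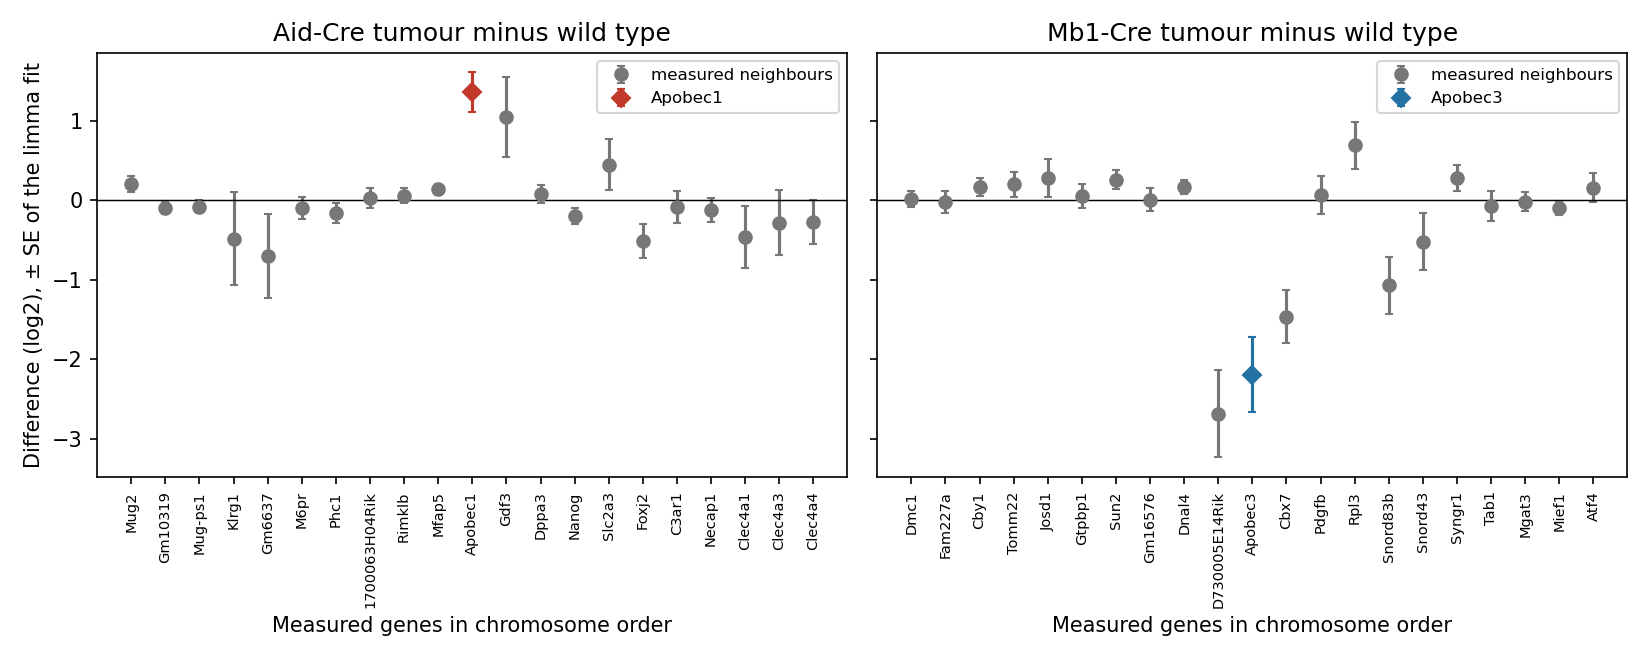
Differences from wild type of the 10 measured genes on each side of Apobec1 in Aid-Cre tumours (left) and of Apobec3 in Mb1-Cre tumours (right), in chromosome order, on the log2 scale with the SE of the limma fit. Gdf3 at 1.05 stands nearest to Apobec1 in size, and D730005E14Rik at -2.68 and Cbx7 at -1.46 flank Apobec3.

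Genes whose values across the 19 arrays were most like each deaminase were named by Pearson's r, as a description, with r of deviations from the group means beside it. For Apobec1 the highest were Per1, a repressor of the circadian clock, at 0.86 and 0.69, the kinase gene Tlk2 at 0.81 and 0.57, AF067063 at 0.78 and 0.45, the noncoding Platr10 at 0.76 and 0.64, and Ankrd17 at 0.74 and 0.82. AF067063 and Platr10 lay near background on nearly all arrays. Per1 measured 8.56, 9.95, 8.84 and 9.08 in Aid-Cre tumours and 8.44, 8.27 and 8.19 in wild type. Mb1-Cre tumour replicate 1, at 8.60, lay above the lowest Aid-Cre tumour in Per1, as it was also the highest Mb1-Cre tumour in Apobec1. The lowest r with Apobec1 were -0.82 for Agpat1, an acyltransferase of phospholipid synthesis, -0.78 for Tada3, a subunit of histone acetyltransferase complexes, and -0.77 for Ccpg1os.

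For Apobec3 the highest r after D730005E14Rik were those of Cbx7 at 0.78, Fam160b2 at 0.77 (0.35 for deviations from the group means), Sh3bgr at 0.74, Nfu1, an iron-sulphur cluster scaffold gene, at 0.74, and Myof, a membrane repair protein gene, at 0.74. Myof measured 7.76, 6.55, 6.66, 6.38 and 6.39 in Mb1-Cre tumours, against 8.02, 8.28 and 8.28 in wild type. As in Apobec3, Mb1-Cre tumour replicate 1 stood above the other Mb1-Cre tumours, but pre-tumour replicate 1, low in Apobec3, was high in Myof at 8.05. The lowest r were -0.76 for Triobp, an actin-binding protein gene, and -0.72 for both Olfr922 and Kcnk12; Olfr922 and Sh3bgr were near background in all arrays.

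The other cytidine deaminases did not pass the test in any comparison. Of 5 measured members besides Apobec1 and Apobec3, limma called 0 against wild type in each of the 4 groups. Over all genes it called 9 (0.0406%) in Sca1-Cre tumours and 1 (0.00451%) in pre-tumour spleens. Among the 5 deaminases, 1 in each of the Aid-Cre and Sca1-Cre comparisons had an unadjusted p under 0.05, where 1842 (8.30%) and 2521 (11.4%) of all genes did. Apobec2, a muscle-associated family member with no known deamination target, measured 5.38, 7.02, 6.82 and 5.62 in Sca1-Cre tumours, against 5.07, 5.05 and 5.10 in wild type. The difference of 1.14 ± 0.30 was not called (limma adjusted p = 0.193), and replicates 2 and 3 were highest. Cda, a deaminase of free cytidine in pyrimidine salvage, measured 5.84, 6.51, 5.16 and 5.32 in Aid-Cre tumours, against 4.73, 4.93 and 5.02 in wild type. Its difference was 0.81 ± 0.24 (limma adjusted p = 0.374), with replicates 1 and 2 above replicates 3 and 4. Those replicates 1 and 2 also had the higher neutrophil, erythroid and mitosis list means of the Aid-Cre tumours. The Mb1-Cre tumours, with a neutrophil list mean of 11.22, had a Cda mean of 5.18. In wild type the Cda mean was 4.89, beside array 40th percentiles of 4.72 to 4.9.

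Dctd, the deoxycytidylate deaminase, differed from wild type by 0.25 ± 0.16 in Aid-Cre, 0.20 ± 0.15 in Mb1-Cre and 0.26 ± 0.16 in Sca1-Cre tumours. Cdadc1, a relative of the cytidine deaminases, differed by 0.24 ± 0.14, 0.11 ± 0.13 and 0.15 ± 0.14 in the same order of tumours, with no call. Apobec4 was near background in all arrays, at 3.09 to 3.51. All 5 members had a median difference of 0.25 in Aid-Cre tumours, beside 0.01 over all genes.

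None of the cofactors of Apobec1 was called against wild type. Of 7 cofactor and partner genes, limma called 0 in each comparison with wild type, and at an unadjusted p under 0.05 there were 0 in the Aid-Cre and 2 in the Sca1-Cre comparison, where 8.30% and 11.4% of all genes lay under it. A1cf, the apolipoprotein B editing cofactor, was near background throughout, at 3.46 to 3.98. Rbm47, the cofactor known from editing in other tissues, measured 6.35, 6.56, 5.64 and 5.52 in Aid-Cre tumours, against 6.03, 5.87 and 6.39 in wild type. The cofactor list had a median difference of 0.04 in Aid-Cre tumours, beside 0.01 over all genes. Dnajb11, a chaperone, and Hnrnpab, an RNA-binding protein, stood at 0.44 ± 0.14 and 0.46 ± 0.18 in Sca1-Cre tumours against wild type (limma adjusted p = 0.236 and 0.351).

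The level of transcripts known as Apobec1 editing targets in mouse was read as abundance only, since arrays of this kind do not read edited bases. Of 12 such genes limma called 0 in any comparison with wild type, and at an unadjusted p under 0.05 there were 2, both in Mb1-Cre tumours, where 2515 (11.3%) of all genes lay under it. Their median difference in Aid-Cre tumours was 0.04, within a range of -0.34 to 0.44. App, the amyloid precursor gene, stood at 1.17 ± 0.50 in Mb1-Cre tumours (limma adjusted p = 0.404) and Cyp4v3 at -0.47 ± 0.21 (limma adjusted p = 0.426). B2m, the light chain of class I antigens, lay between 12.70 and 13.31 in all 19 arrays.

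Among 10 measured retroviral restriction factors besides Apobec3, limma called 0 in each comparison with wild type, and 1 in each had an unadjusted p under 0.05. Of all genes, 8.30% did so in the Aid-Cre, 11.3% in the Mb1-Cre, 11.4% in the Sca1-Cre and 5.47% in the pre-tumour comparison. The median difference was 0.08 in Mb1-Cre tumours, beside 0 over all genes, within a range of -0.33 to 0.92. Bst2, which tethers budding virus to the cell, stood at 0.90 ± 0.30 in Sca1-Cre tumours (limma adjusted p = 0.259), and Ifitm3, which blocks virus entry, at 0.92 ± 0.42 in Mb1-Cre tumours (limma adjusted p = 0.430). The type I interferon list had 8 measured members, of which 7 lay above 0 in Mb1-Cre tumours with a median of 0.79 and none called; 0 had an unadjusted p under 0.05. Its mean was 7.95, 8.86, 8.15, 8.07 and 7.50 in Mb1-Cre tumours, against 7.52, 7.35 and 7.43 in wild type. In Aid-Cre tumours against wild type 8 members lay above 0 with a median of 0.63, and in Sca1-Cre tumours 8 with 0.52. In pre-tumour spleens 6 lay above 0 with a median of 0.32, and none was called in these comparisons.

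Of 10 measured genes that repair deaminated DNA limma also called 0 in each comparison with wild type, and 1, in Sca1-Cre tumours, had an unadjusted p under 0.05, as did 11.4% of all genes there. This was Ung, the uracil DNA glycosylase that removes the product of deamination, at 0.39 ± 0.17 (limma adjusted p = 0.407). In Aid-Cre tumours Ung differed by 0.35 ± 0.17 and in Mb1-Cre tumours by 0.29 ± 0.16. The 5 adenosine deaminases acting on RNA, which edit adenosine and not cytosine, had 0 members called and 0 at an unadjusted p under 0.05 against wild type. Adar stood highest, at 0.28 ± 0.14 in Aid-Cre tumours (limma adjusted p = 0.630).

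**Figure D5:**
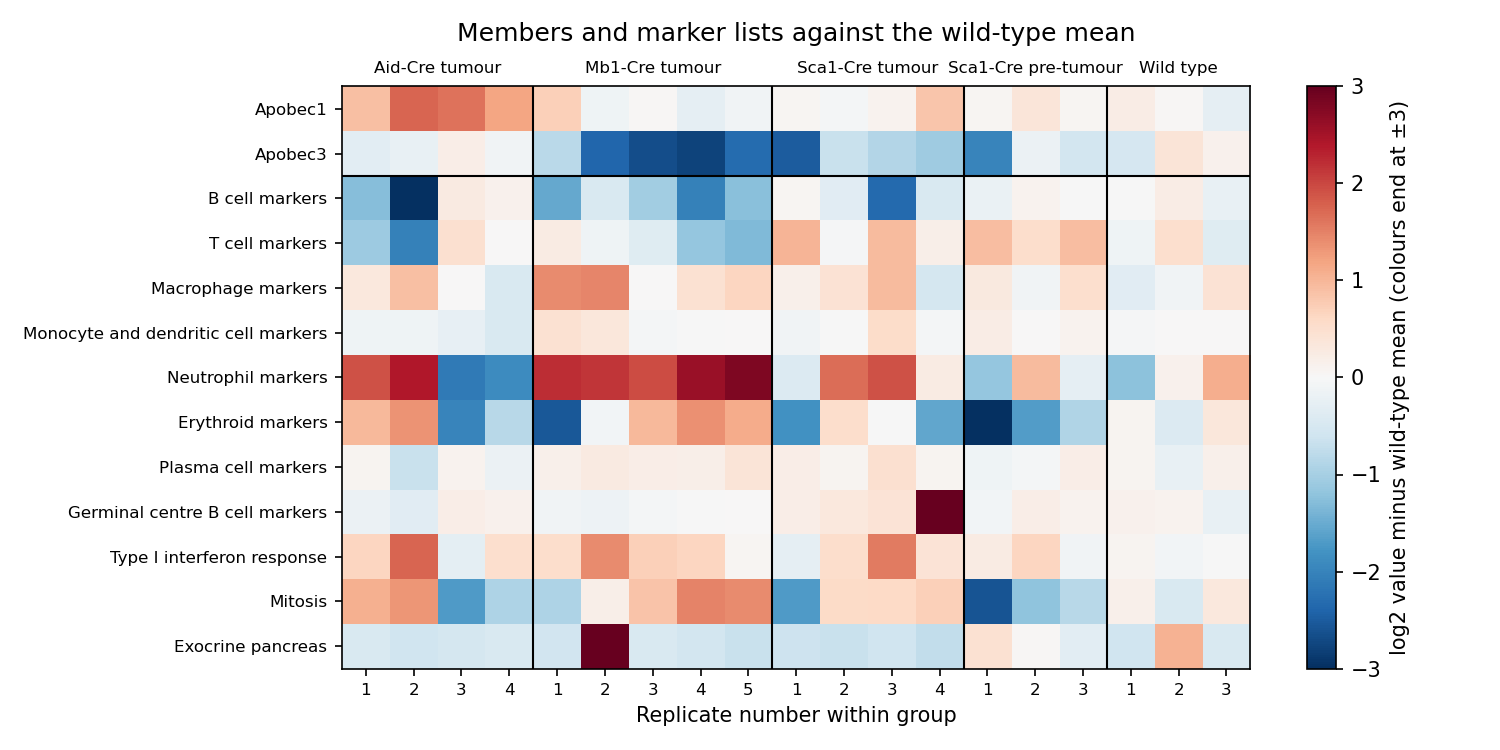
Apobec1, Apobec3 and the mean of each marker list on every array, as the log2 value minus the wild-type mean, with colours that end at 3 in either direction. Apobec1 is red across all 4 Aid-Cre tumours although their B cell and neutrophil lists differ, and Apobec3 is blue on 4 of 5 Mb1-Cre tumours, on Sca1-Cre tumour replicate 1 and on pre-tumour replicate 1.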

How the data were processed

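Total spleen RNA was extracted with Trizol, labelled with biotin and run on expression arrays, according to the labels. The authors deposited log2 values per probe set, and the submitters' processing notes name RMA and the oligo package without versions. Of 41345 probe sets 23521 had 1 symbol, and the brightest probe set stood for each of 22180 genes. Groups came from the sample titles. limma 3.58.1 in R 4.3.3 fitted group means over all 19 arrays (14 residual and 2.46 prior degrees of freedom), two-sided, with Benjamini-Hochberg adjustment over all genes, after a test on simulated data. Genes were named by rule: every measured cytidine deaminase, called list members or those with the smallest p, the 5 highest and 3 lowest correlations with each member, and the nearest neighbours with the smallest p. The members and gene lists were chosen with earlier results of these data known. Replicates are labelled biological. Whether the replicate numbers pair arrays across groups cannot be told from the check made. Deviations from the group means correlated above 0.1 in 8 of 33 same-numbered pairs, within a range of -0.534 to 0.409. Differently numbered pairs were not set beside them. Promoters came from RefSeq (GRCm38.p6). Alternatives changed normalisation, filter, probe-set rule, arrays in the fit, variance model, array weights, replicate block, sex covariate and single arrays. The number of arrays limits the precision.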

Additional observations from a re-analysis of the deposited data

Results flagged for a closer look

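Apobec3 in Mb1-Cre tumour replicate 1, at 9.66, stood far from the other 4 Mb1-Cre tumours, at 8.10, 7.83, 7.71 and 8.16. Its gap to the nearest of them was 0.772 of the whole range of the group of 5 arrays. Apobec3 was chosen by its values in these tumours, so this is a description with no test. The same array also had the highest Apobec1 value of the Mb1-Cre tumours, 9.64, with a gap of 0.674 of the range.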

How the results depend on the processing

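For Apobec1 and Apobec3, 356 alternative values were computed over 18 differences, and 349 kept the direction of the value reported. No tested difference of either gene passed the threshold under any alternative. The 7 that turned all belonged to differences smaller than their SE in the reported fit. The largest of these was Apobec3 in Sca1-Cre tumours against pre-tumour spleens, at -0.37. Apobec1 in Mb1-Cre tumours against wild type ran from -0.12 to 0.16 with 1 array left out, and was -0.12 without Mb1-Cre tumour replicate 1 and -0.09 without wild type replicate 3. Apobec1 in Sca1-Cre tumours against pre-tumour spleens ran from -0.13, without Sca1-Cre tumour replicate 4, to 0.18. Apobec1 in Mb1-Cre against Sca1-Cre tumours ran from -0.36 to 0.01, the highest value again without Sca1-Cre tumour replicate 4. Apobec3 in Aid-Cre tumours against wild type ran from -0.37 to 0.07, the highest without wild type replicate 2, and was 0.07 without both arrays with pancreatic transcripts. Apobec3 in Sca1-Cre tumours against pre-tumour spleens ran from -0.91 to 0.03, the highest without Sca1-Cre tumour replicate 1. The cause of these turns was not tested. The replicate number as a block changed no call of either gene, with Apobec1 at 1.36 in Aid-Cre tumours and Apobec3 at -2.11 in Mb1-Cre tumours against wild type. For Ifi202b, examined after the data were seen, the block ended both calls, at -2.21 (adjusted p 0.191) in Aid-Cre against Mb1-Cre tumours and 2.35 (adjusted p 0.131) in Mb1-Cre against Sca1-Cre tumours.

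The number of genes called in all, which is the background of the counts above, was small. Of 149 alternative counts 87 differed from the reported one by over 1.5 times and 62 did not. The fits of only the compared groups held fewer arrays, and the cause of the changed counts was not tested under any setting. Aid-Cre tumours against wild type had 4 calls in the reported fit, 8 with median centring, 1 with only the compared groups, 0 with the replicate block, 0 with the sex covariate, 1 without both arrays with pancreatic transcripts, and 0 to 3 with 1 array left out. Mb1-Cre tumours against wild type had 0 calls, 61 with only the compared groups, 2 with the replicate block, and 0 to 2 with 1 array left out. Sca1-Cre tumours against wild type had 9 calls, 15 with cyclic loess, 14 with the mean of probe sets, 2 with only the compared groups, 4 with a variance trend and robust settings, 33 with array weights, 0 with the replicate block, 0 without both arrays with pancreatic transcripts, and 2 to 12 with 1 array left out. Pre-tumour spleens against wild type had 1 call, 2 with median centring, 3 with only the compared groups, 21 with array weights, 0 with quantile normalisation, cyclic loess, the replicate block, the sex covariate or without both arrays with pancreatic transcripts, and 0 to 1 with 1 array left out. Sca1-Cre tumours against pre-tumour spleens had 0 calls with 1185 genes at an unadjusted p under 0.05 in limma, 1 with only the compared groups, 1 without both arrays with pancreatic transcripts, and 0 to 1 with 1 array left out. Aid-Cre against Mb1-Cre tumours had 10 calls, 0 with only the compared groups, array weights or the replicate block, 1 with the sex covariate, 2 without both arrays with pancreatic transcripts, and 0 to 27 with 1 array left out. Aid-Cre against Sca1-Cre tumours had 10 calls, 6 with quantile normalisation, 17 with cyclic loess, 16 with a filter on dim genes, 0 with only the compared groups or the replicate block, 2 with array weights or the sex covariate, and 1 to 229 with 1 array left out. Mb1-Cre against Sca1-Cre tumours had 9 calls, 3 with median centring, 4 with the filter on dim genes, 2 with the mean of probe sets, 5 with only the compared groups or with a variance trend and robust settings, 2 with the replicate block, 33 with the sex covariate, 0 without both arrays with pancreatic transcripts, and 0 to 63 with 1 array left out.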
